A study of Homo sapiens with 9 samples.

Results

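A group of 10 genes of prostaglandin E2 synthesis, sensing and removal were followed in 9 RNA-Seq libraries from PC3 xenografts: PLA2G4A, PTGS1, PTGS2, PTGES, PTGES2, PTGES3, PTGER2, PTGER4, SLCO2A1 and HPGD. They were chosen by name from the pathway and selected on measured values, since the change of PTGS2 against PBS was already known from these libraries. All 10 were listed in both count tables, which together held 16204 genes. The comparisons of these 10 genes with PBS are therefore given as a description, without p-values. The comparison between the conjugates had no part in the choice and was tested.

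PC3 is a human prostate cancer cell line grown from a bone metastasis. The cells were injected subcutaneously with Matrigel into the flanks of male NSG mice, which lack T, B and natural killer cells but keep host stroma, vessels and myeloid cells. The series description gives mice 11 weeks old, a tumor volume of 90 mm3 at the start of treatment and 5 weekly cycles by retro-orbital injection. Mice received either PBS as vehicle or 5 mg/kg of an antibody-drug conjugate. The study's methods give another age, starting volume and number of cycles for the experiment that compared both conjugates at 5 mg/kg, whose tumors were sequenced. They give 11 weeks, 90 mm3 and 5 cycles for an initial experiment with only the HER2-directed conjugate, at another dose. T-DXd (trastuzumab deruxtecan) is directed to HER2 and P-DXd (patritumab deruxtecan) to HER3, and both carry the topoisomerase I inhibitor DXd. For all 6 treated libraries the sample title named one conjugate and the treatment field the other. Titles were used to name the groups, giving 3 P-DXd-titled, 3 T-DXd-titled and 3 PBS libraries. Whole tumor pieces of 1 cell line were taken at the experimental endpoint, so the libraries hold residual tumors of treated mice.

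Prostaglandin E2 is a lipid mediator of inflammation, pain and tumor growth. Cytosolic phospholipase A2 (PLA2G4A) releases arachidonic acid from membranes, the cyclooxygenases COX-1 (PTGS1) and COX-2 (PTGS2) convert it to prostaglandin H2, and the prostaglandin E synthases (PTGES, PTGES2, PTGES3) form prostaglandin E2 from it. PTGS1 is usually made at a steady level, whereas PTGS2 is an immediate-early gene induced by cytokines, growth factors and stress. The receptors EP2 (PTGER2) and EP4 (PTGER4) raise cyclic AMP. The transporter SLCO2A1 takes prostaglandins back into cells, where hydroxyprostaglandin dehydrogenase (HPGD) inactivates them.

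PTGS2 and PLA2G4A lie next to each other on chromosome 1. The count tables list PTGS2 (ENSG00000073756.7) at 186640923 to 186649559 and PLA2G4A (ENSG00000116711.8) at 186798085 to 186958113, on a build the tables do not name, with 148.5 kb between them. In GENCODE v44 PTGS2 is on the minus strand and PLA2G4A on the plus strand. The 250 bases before each start, from RefSeq on GRCh38.p14, are shown because these were the 2 members called lower in the treated tumors. Capitals mark the core of a cyclic AMP response element (TGACG, or CGTCA on the other strand) and a TATA box (TATAAA).
PTGS2, chr1:186680424-186680673, minus strand: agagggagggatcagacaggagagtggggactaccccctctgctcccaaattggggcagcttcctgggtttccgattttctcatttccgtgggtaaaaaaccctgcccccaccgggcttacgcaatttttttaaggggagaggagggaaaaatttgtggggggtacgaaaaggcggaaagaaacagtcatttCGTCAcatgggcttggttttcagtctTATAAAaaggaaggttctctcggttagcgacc
PLA2G4A, chr1:186828699-186828948, plus strand: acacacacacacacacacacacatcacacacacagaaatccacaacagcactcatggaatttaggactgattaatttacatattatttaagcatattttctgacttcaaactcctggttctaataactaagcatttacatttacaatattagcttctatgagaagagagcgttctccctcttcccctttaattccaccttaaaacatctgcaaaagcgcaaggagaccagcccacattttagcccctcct
The PTGS2 sequence held 1 such core, read on the opposite strand at 58 to 54 bases before the start, and 1 TATA box at 32 to 27 bases before it. Over both strands, 21.2% of 35116 promoter sequences of the same length held the core and 10.7% the TATA box. The PLA2G4A sequence held neither. The full element TGACGTCA (1.65% of promoters) had no match in either sequence, which says only that these letters are not in these windows. The strict NF-kB consensus (5.21%) had none either, but this search missed any site that departs from the consensus by a single base, and nothing is read from it.

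PTGS2 made up the widest difference among the members. It stood at 529, 42.6 and 39.2 CPM, the read count scaled to library size with TMM factors, in PBS replicates 1, 2 and 3. It stood at 5.11, 2.92 and 4.47 CPM in the P-DXd-titled libraries and at 3.18, 4.37 and 2.71 CPM in the T-DXd-titled libraries. The groups did not overlap, and the lowest PBS library was 7.66 times the highest treated one. In reads, PBS replicates held 46579, 5462 and 4400 counts of PTGS2, and the 6 treated libraries 159 to 429. The log2 fold change was -5.59 (SE 1.16) in the P-DXd-titled, -5.89 (SE 1.199) in the T-DXd-titled and -5.74 (SE 0.73) in all 6 treated libraries against PBS. In these bulk samples, fewer cells that express a gene and less RNA per cell cannot be told apart. The labels do not say more of the libraries than separate xenograft codes, so errors and p-values measure the spread between these samples.

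PBS replicate 1 stood apart for PTGS2. Its level was 12.4 times that of the next PBS library, the second-highest such ratio among 15070 genes tested. Without this library the log2 fold change of PTGS2 was -3.28 (SE 0.20) in the P-DXd-titled and -3.57 (SE 0.15) in the T-DXd-titled libraries, and -3.42 (SE 0.19) in all 6. The fold was then 10.7 instead of 53.4. PBS replicate 1 was the highest of the 9 libraries for 5 of 9 members tested and for 32.0% of all genes tested. It was at least 2-fold above both other PBS libraries for 4.02% of genes and at least 2-fold below both for 6.42%, against 0.664% to 0.869% and 0.670% to 1.95% for the other two.

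**Figure D1:**
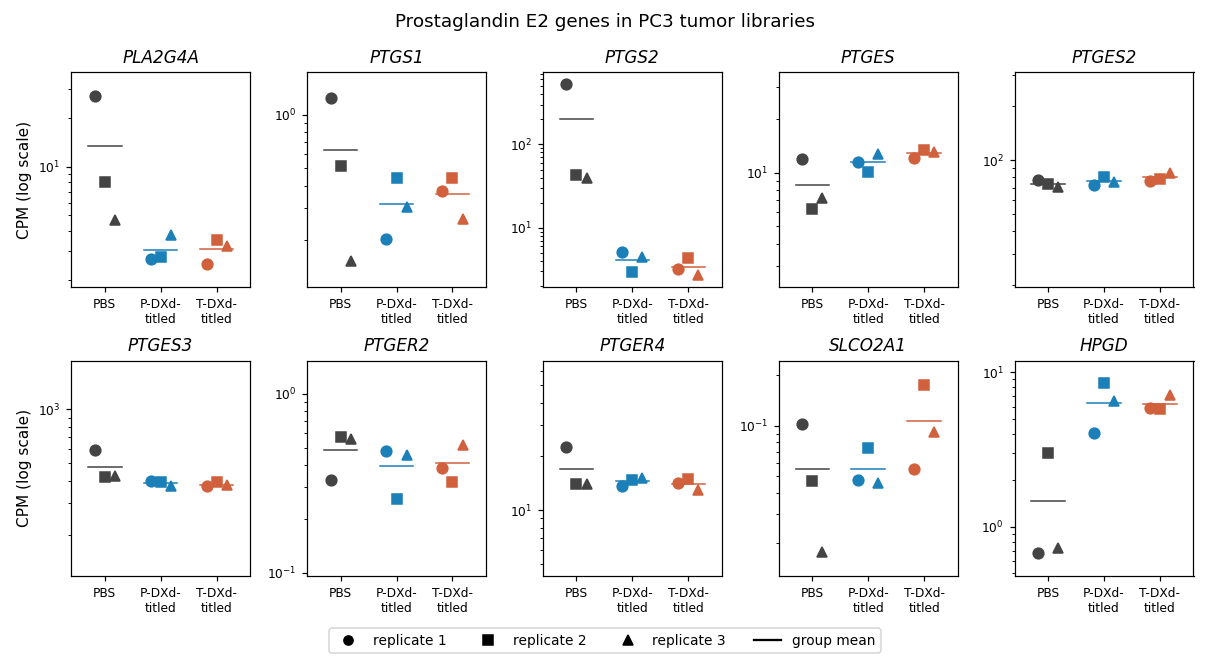
CPM of the 10 genes on log scales for PBS, P-DXd-titled and T-DXd-titled libraries, with 1 symbol per replicate and a line at the group mean. PTGS2 and PLA2G4A were higher in every PBS library than in any treated library, HPGD was lower in every PBS library than in any treated one, and PBS replicate 1 (circle) was the highest library for PTGS2 at 529 CPM.

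PLA2G4A, which supplies the substrate of the cyclooxygenases, was also lower after both conjugates. It stood at 27.5, 8.05 and 4.69 CPM in PBS, at 2.68, 2.77 and 3.77 in the P-DXd-titled and at 2.52, 3.53 and 3.26 in the T-DXd-titled libraries. The groups did not overlap, but the lowest PBS library was only 1.24 times the highest treated one. The log2 fold change was -2.11 in each conjugate group (SE 0.62 and 0.63) and -2.12 (SE 0.42) in all 6 libraries against PBS. PBS replicate 1 was again the highest library, at 3.42 times the next. Without it the log2 fold change was -1.04 (SE 0.21), a fold of 2.06.

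HPGD, the enzyme that inactivates prostaglandin E2, was higher in every treated library than in any PBS library. It stood at 0.670, 2.99 and 0.730 CPM in PBS, at 4.04, 8.50 and 6.50 in the P-DXd-titled and at 5.85, 5.75 and 7.13 in the T-DXd-titled libraries. PBS replicate 2 was the PBS library closest to the treated ones, and the lowest treated library was 1.35 times as high. The log2 fold change was 2.12 (SE 0.63), 2.08 (SE 0.59) and 2.09 (SE 0.47) in the P-DXd-titled, the T-DXd-titled and all 6 libraries. Without PBS replicate 2 the value over all 6 treated libraries was 3.16, and without PBS replicate 1 it was 1.76 (SE 0.43). In GENCODE v44, exons of HPGD share bases with a gene on the other strand (ENSG00000251584), as those of PTGS2 do with PACERR, and no source used here states that the counting used strand.

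Markers of several cell types moved with these differences. Summed CPM over the 8 of 14 macrophage markers in both tables ran from 6.67 to 7.30 in PBS and from 19.1 to 40.0 in treated libraries, while CD163, ADGRE1, MRC1, C1QA, C1QC and TYROBP were not in both tables. The neutrophil markers, with S100A8 and S100A9 that epithelium also makes, summed to 149 to 611 CPM in PBS and 1176 to 1658 in treated libraries. The epithelial markers KRT8, KRT18, KRT19, EPCAM and CDH1 were all present and summed to 1668 to 2345 in PBS and 3127 to 3664 in treated libraries. Skeletal muscle markers summed to 0.881 to 38.7 in PBS, 3705 in P-DXd-titled replicate 2 and 62.8 to 225 in the other treated libraries. Summed fibroblast markers (1072 to 2078 in PBS, 1232 to 2234 treated) and endothelial markers (5.72 to 12.9 and 7.17 to 12.4) were in overlapping ranges. Luminal prostate markers (13.6 to 16.3 and 16.7 to 25.0) were in adjoining ranges without overlap, with KLK2 and KLK3 not in both tables. PBS replicate 1 held the fibroblast sum of 2078, against 1151 and 1072 in PBS replicates 2 and 3. Its neutrophil sum was 149, against 510 and 611. Of the fibroblast markers tested in the treated libraries against PBS, 5 of 10 were nevertheless called higher and 1 lower. The called counts were 5 of 7 higher for macrophage, 2 of 3 for neutrophil, 2 of 5 for epithelial, 8 of 8 for skeletal muscle, 1 of 7 for endothelial and 1 of 3 for luminal prostate markers. By the call rule given in the next paragraph, 15.2% of all genes tested were higher and 17.1% lower in this comparison. The platelet and mast cell list summed to 2.25 to 2.69 in PBS and 0.881 to 1.29 in treated libraries, without PF4, GP9, TPSAB1 and MS4A2, with 1 of 3 called lower. The part of these cells, and of mouse reads that may be counted in human genes, in the differences of the members was not tested.

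A gene was called when edgeR's quasi-likelihood test gave a Benjamini-Hochberg adjusted p of at most 0.05 and a fold of at least 1.5. Of the 9 members that passed the filter on low counts, 3 were called in the P-DXd-titled libraries, where 25.0% of 14945 genes were called. It was also 3 of 9 in the T-DXd-titled libraries, with 28.6% of 14915 genes, and in all 6 libraries, with 32.2% of 15070 genes. In each comparison these were PTGS2 and PLA2G4A, lower (13.8%, 15.5% and 17.1% of genes), and HPGD, higher (11.2%, 13.1% and 15.2%). Because the choice of members used these contrasts, nothing is read from the counts. The members' groups did not overlap for 4 of 9 genes in the comparison of all 6 libraries, and those of 50.5% of all genes did not. The median log2 fold change was -0.27 over the 9 members and -0.014 over all genes tested.

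Leaving out single libraries changed some of these calls, which is given only as a description of the selected genes. With 3 against 3, HPGD and PLA2G4A lost their call without any 1 of the treated libraries of either group, HPGD also without PBS replicate 3, and PTGS2 without P-DXd-titled replicate 2 or 3. The number of members called was then 0 to 4 in the P-DXd-titled and 1 to 4 in the T-DXd-titled comparison. Over all genes, 1857 to 3936 and 2820 to 4641 were called in these fits. DESeq2 gave PTGS2 no adjusted p in any of the 3 comparisons, so 2, 3 and 2 members were called, PTGES among the 3 of the T-DXd-titled comparison. Of all genes DESeq2 called 4239, 4658 and 4908, where edgeR called 3742, 4263 and 4855.

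**Figure D2:**
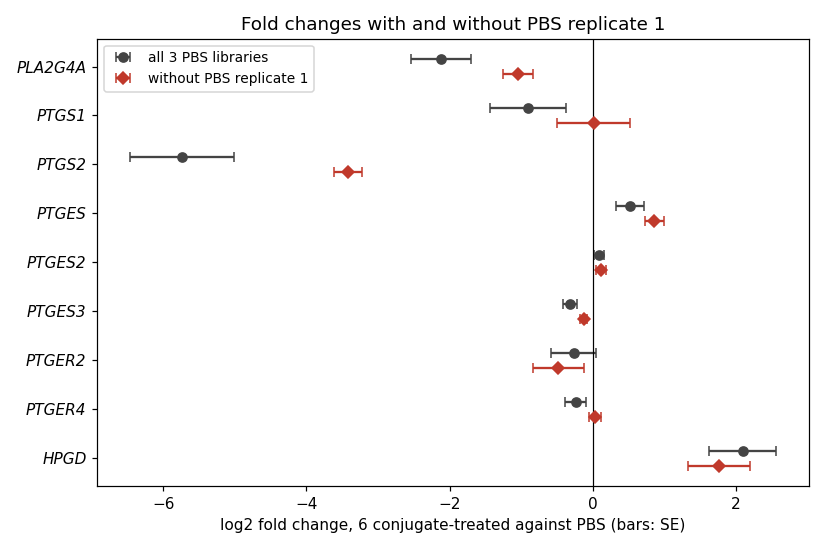
Log2 fold change (points) with its SE (bars) of 9 members in the 6 treated libraries against all 3 PBS libraries (circles) or without PBS replicate 1 (diamonds). Leaving it out moved PTGS2 from -5.74 to -3.42 and PLA2G4A from -2.12 to -1.04, and brought PTGS1 to 0.01.

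The terminal synthases were less changed. PTGES, the inducible microsomal synthase, stood at 11.98, 6.23 and 7.25 CPM in PBS, 11.5, 10.1 and 12.8 in the P-DXd-titled and 12.1, 13.4 and 13.1 in the T-DXd-titled libraries. Its log2 fold change over all 6 was 0.52 (SE 0.19), under the 1.5-fold minimum. In the T-DXd-titled libraries against PBS it was 0.60 (SE 0.25), past that minimum and without overlap of the groups, but PTGES was not called. PBS replicate 1 lay among the treated libraries, and without it the value over all 6 was 0.86 (SE 0.13). PTGES was then called in each comparison, with 4 members called in each. Of all genes, 3730, 4357 and 4204 were called without that library in the P-DXd-titled, T-DXd-titled and all 6 libraries. PTGES2, a membrane-associated synthase, varied least: 71.2 to 77.1 CPM in PBS and 72.3 to 85.2 in treated libraries (log2 fold change 0.08, SE 0.07). PTGES3, the cochaperone p23, stood at 592, 419 and 427 CPM in PBS and at 371 to 400 in treated libraries, without overlap. Its log2 fold change was -0.32 (SE 0.10), or -0.13 (SE 0.05) without PBS replicate 1, both under the fold minimum. PTGES3 has processed pseudogenes and PTGES2 overlaps the listed gene AL590708.2, so reads of either may be split.

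PTGS1, SLCO2A1 and PTGER2 were near the limit of detection. PTGS1 stood at 1.24, 0.515 and 0.151 CPM in PBS and at 0.203 to 0.444 in treated libraries, so that the PBS values lay on both sides of the treated ones. Its log2 fold change was -0.91 (SE 0.53) with all libraries, 0.01 (SE 0.51) without PBS replicate 1, and -1.37 and past the threshold without PBS replicate 3. SLCO2A1 had 2 to 13 counts per library (0.0178 to 0.175 CPM) and did not pass the filter. PTGER2 stood at 0.329 to 0.570 CPM in PBS and 0.257 to 0.518 in treated libraries, with a log2 fold change of -0.27 (SE 0.32).

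PTGER4 was the more abundant receptor. It stood at 22.7, 14.05 and 13.96 CPM in PBS, 13.6, 14.8 and 15.1 in the P-DXd-titled and 12.97 to 14.9 in the T-DXd-titled libraries. Only PBS replicate 1 lay outside the range of the treated libraries. The log2 fold change was -0.24 (SE 0.15) and became 0.03 (SE 0.09) without that library. None of the receptor values passed the threshold.

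Per kilobase of the canonical transcript, the members ordered differently in treated and PBS tumors. In the treated libraries PTGES3 came first at 202 ± 5.85 CPM per kb (SD, n = 6), then PTGES2 at 48.9 ± 2.75, PTGES at 6.93 ± 0.707, PTGER4 at 4.16 ± 0.244 and HPGD at 2.40 ± 0.571. PLA2G4A (1.07 ± 0.175) and PTGS2 (0.841 ± 0.218) followed within their spread, and PTGER2 (0.164), PTGS1 (0.0671) and SLCO2A1 (0.0200) came last. In PBS, PTGS2 ranked behind PTGES3 and PTGES2 at 45.2 ± 62.5 CPM per kb (SD, n = 3), its spread being set by replicate 1. PTGER4 (4.92 ± 1.46), PTGES (4.85 ± 1.75) and PLA2G4A (4.66 ± 4.28) did not differ beyond their spread there, and HPGD was at 0.559 ± 0.505.

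Ratios of counts within a library, which no scaling between libraries can change, turned over between the groups. PTGS2 had 789.5, 14.3 and 53.7 counts for each HPGD count in PBS replicates 1, 2 and 3. In the P-DXd-titled libraries the ratio was 1.26, 0.343 and 0.689, and in the T-DXd-titled libraries 0.543, 0.761 and 0.380. In counts PTGS2 was thus above HPGD in all 3 PBS libraries and below it in 5 of 6 treated ones, P-DXd-titled replicate 1 being the exception. Per kilobase of transcript, that library held 1.13 CPM per kb of PTGS2 and 1.54 of HPGD, so that PTGS2 was below HPGD in all 6 treated libraries on this scale. Against PTGES, PTGS2 had 44.1, 6.84 and 5.40 counts per count in PBS and 0.207 to 0.445 in treated libraries. Against PTGS1, the other cyclooxygenase, it had 427, 82.8 and 259 in PBS and 6.62 to 25.2 in treated libraries, so PTGS2 stayed the more counted cyclooxygenase in all 9.

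**Figure D3:**
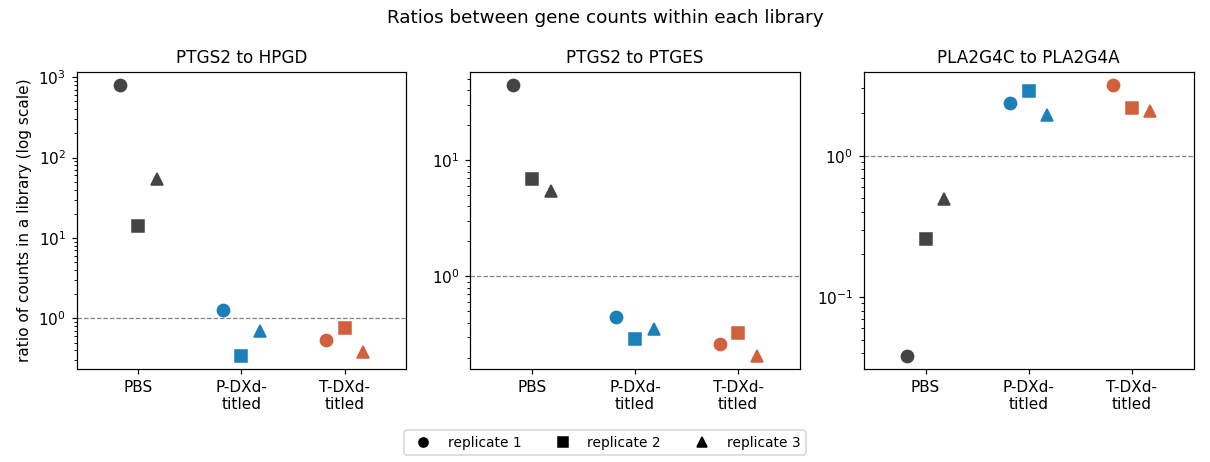
Ratios of counts within each library on log scales for PTGS2 to HPGD, PTGS2 to PTGES, and PLA2G4C to PLA2G4A, with 1 symbol per replicate and a dashed line at 1. PTGS2 to PTGES was above 5 in the 3 PBS libraries and below 0.5 in the 6 treated ones, and PLA2G4C to PLA2G4A crossed 1 the other way.

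The conjugate groups were then compared with each other. None of the 9 members tested passed the threshold, with edgeR adjusted p = 0.9998 for each and none at an unadjusted p under 0.05, while 0.0273% of 14653 genes were called. DESeq2 called none of the members either. For PTGS2 the log2 difference of the P-DXd-titled from the T-DXd-titled libraries was 0.29 (95% interval -0.26 to 0.84). For HPGD it was 0.02 (-0.51 to 0.55), for PLA2G4A -0.01 (-0.49 to 0.47), for PTGES -0.17 (-0.42 to 0.09) and for PTGER4 0.05 (-0.17 to 0.26). The widest intervals were those of the scarce genes PTGS1 (-1.20 to 0.79) and PTGER2 (-0.95 to 0.89). With 3 replicates per group, these comparisons left room for differences of the size of these bounds.

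A further 7 lists covered the rest of the pathway: 82 of 93 genes named were in both tables. Of 77 tested in all 6 treated libraries against PBS, 22 were higher and 12 lower, 34 in all, beside 15.2%, 17.1% and 32.2% of all genes. Against PBS, 24 of 74 were called in the P-DXd-titled and 27 of 75 in the T-DXd-titled libraries, beside 25.0% and 28.6% of all genes. The counts of genes higher and lower per list below are for all 6 libraries, where the same 15.2% and 17.1% of all genes apply. None of 75 was called between the conjugates by edgeR or DESeq2, with 3 at an unadjusted p under 0.05. Without PBS replicate 1, 30 list genes and 4204 of all genes were called with all 6 libraries, against 34 and 4855 with it. The lists were compiled with earlier results of these data known, and most genes named below were picked because they were called. Their adjusted p-values, over all genes tested, are therefore a description of the picked genes and not separate support.

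Among phospholipases and genes of arachidonate handling, 4 of 14 rose with all 6 libraries. PLA2G4C, a calcium-independent relative of PLA2G4A, rose from 1.06, 2.08 and 2.32 CPM in PBS to 6.30 to 7.92 (log2 fold change 2.00, SE 0.24, edgeR adjusted p = 6.43e-05). PLA2G4C had 0.0384, 0.259 and 0.495 counts per count of PLA2G4A in PBS and 1.95 to 3.14 in the treated libraries. PLA2G16, a phospholipase and acyltransferase, rose by 1.54 (SE 0.28, edgeR adjusted p = 0.00109), PLA2G7, the platelet-activating factor acetylhydrolase, by 1.36 (SE 0.27, 0.00170) and the lysosomal PLA2G15 by 1.02 (SE 0.09, 9.48e-06). PLA2G7 overlaps the listed gene TDRD6. PBS replicate 1 was the lowest library for all 4, and without it they remained called at 0.97 to 1.74. The scarce PLA2G4B went the other way. It was called lower in the T-DXd-titled libraries (log2 fold change -2.74, SE 0.64, edgeR adjusted p = 0.0142), but not over all 6 (-1.62, SE 0.67). Its CPM was 0.285 to 0.784 in PBS and 0.0413 to 0.365 in treated libraries, and it overlaps the listed gene JMJD7.

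The leukotriene branch, which uses the same arachidonic acid, had 6 of 14 genes higher and 3 lower. ALOX5AP, the protein that presents arachidonic acid to the lipoxygenase ALOX5, stood at 8.59, 56.1 and 55.3 CPM in PBS and at 5.18 to 6.71 in treated libraries (log2 fold change -2.74, SE 0.41, edgeR adjusted p = 0.000295). Here PBS replicate 1 was the PBS library closest to the treated ones. ALOX5 itself, counted among the 6 higher, was scarce, at 0.0568 to 0.294 CPM in PBS and 0.275 to 0.7025 in treated libraries. LTB4R, the high-affinity leukotriene B4 receptor, fell from 18.8, 8.95 and 5.64 CPM to 1.66 to 3.07 (-2.26, SE 0.33, edgeR adjusted p = 0.000250). Its low-affinity relative LTB4R2 fell by 1.92 on the log2 scale (SE 0.32, edgeR adjusted p = 0.000567). Without PBS replicate 1 the log2 fold change of LTB4R was -1.65. The listed positions of LTB4R and LTB4R2 overlap, so their reads may be shared. MGST3, a microsomal glutathione transferase, rose by 0.77 (SE 0.14, edgeR adjusted p = 0.000796). Only 1 further gene was called with each conjugate group, MGST2, at 0.63 (SE 0.10).

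Other prostanoid synthases (2 of 6 higher, 1 lower) and genes of export and reduction (2 of 5 higher) held 1 gene each that was called with both conjugates. Of the 2 higher synthases, HPGDS was near the limit of detection, at 0 to 0.0568 CPM in PBS and 0.0953 to 0.213 in treated libraries. AKR1C3, which makes prostaglandin F from prostaglandins H2 and D2, stood at 10.1 to 14.7 CPM in PBS and 16.1 to 20.8 in treated libraries (log2 fold change 0.62, SE 0.13, edgeR adjusted p = 0.00277). It fell under the fold minimum without PBS replicate 2 (0.51) or 3 (0.57). PTGR1, a reductase of prostaglandins and leukotriene B4, rose from 34.9 to 37.3 CPM in PBS to 48.7 to 59.7 (0.63, SE 0.07, edgeR adjusted p = 6.62e-05). Of the receptors for other prostanoids, edgeR called 0 of 3, with 1 at an unadjusted p under 0.05, and DESeq2 called 1. This was PTGFR, the prostaglandin F receptor, at 0.568, 2.85 and 3.54 CPM in PBS and 3.78 to 6.43 in treated libraries (log2 fold change 1.08, SE 0.44, edgeR adjusted p = 0.0552), named after its values were seen.

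**Figure D4:**
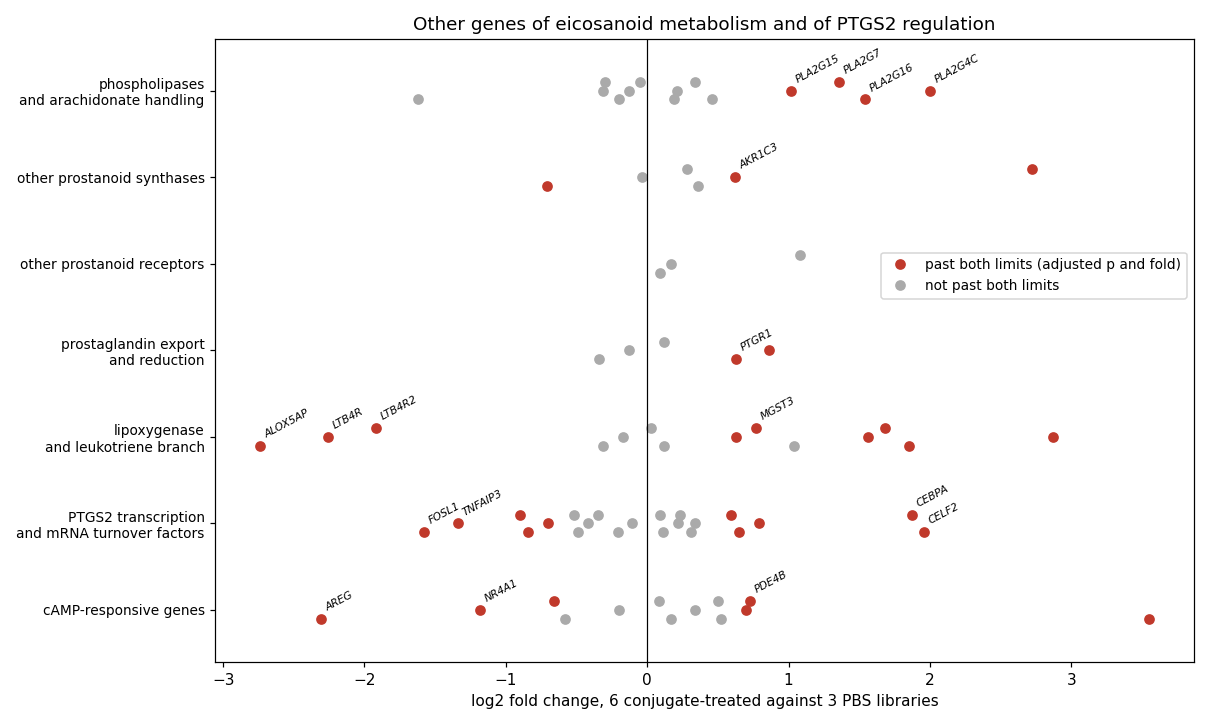
Log2 fold change in the 6 treated libraries against PBS for each tested gene of the 7 other lists (1 point per gene, spread vertically for legibility), with genes past both limits in red and those called with each conjugate and named in the text labelled. Phospholipases in red all lay above 0, while ALOX5AP, LTB4R and LTB4R2 lay between -2.74 and -1.92.

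Of 22 genes that regulate PTGS2 transcription or the turnover of its mRNA, 5 were higher and 5 lower. FOSL1, a subunit of the AP-1 transcription factor, fell from 230, 149 and 127 CPM in PBS to 47.0 to 66.0 (log2 fold change -1.58, SE 0.16, edgeR adjusted p = 2.74e-05). TNFAIP3, an inhibitor and target gene of NF-kB, fell from 166, 77.5 and 90.5 CPM to 41.1 to 48.4 (-1.34, SE 0.19, edgeR adjusted p = 0.000194). CELF2, an RNA-binding protein that can hold back translation of PTGS2 mRNA, rose from 7.07 to 11.7 CPM in PBS to 26.0 to 52.2 (1.96, SE 0.24, edgeR adjusted p = 7.54e-05). The 52.2 was in P-DXd-titled replicate 2, the library highest in skeletal muscle markers, and the remaining treated libraries stood at 26.0 to 34.2. The part of muscle in this value was not tested. CEBPA, a transcription factor, rose by 1.87 (SE 0.27, edgeR adjusted p = 0.000235). RBM3 and ZFP36L2 were also lower and NFKBIA and CEBPB higher with both conjugates. NFKBIA, the NF-kB inhibitor alpha, thus went opposite to TNFAIP3, from 161 to 191 CPM in PBS to 277 to 337 in treated libraries. PBS replicate 1 was the highest library for FOSL1 and TNFAIP3, as for PTGS2, and without it they stayed called at -1.28 and -0.92.

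Of 13 genes that cyclic AMP induces in many cells, 3 were higher and 3 lower. AREG, an EGFR ligand, fell from 7.89, 2.29 and 1.495 CPM in PBS to 0.587 to 1.05 (log2 fold change -2.31, SE 0.43, edgeR adjusted p = 0.00119), and by 1.27 on the log2 scale without PBS replicate 1. NR4A1, an immediate-early nuclear receptor, fell from 9.49 to 11.7 CPM to 2.91 to 7.02 (-1.18, SE 0.25, edgeR adjusted p = 0.00261). PDE4B, which degrades cyclic AMP, rose from 6.44 to 7.66 CPM to 8.86 to 15.6 (0.73, SE 0.17, edgeR adjusted p = 0.00481).

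The tables listed 6 other genes within 1 Mb of PTGS2 and PLA2G4A, of which 5 were tested. OCLM was called, at a mean of 0.309 CPM in PBS and 0.0473 in treated libraries (log2 fold change -2.73, SE 0.81, edgeR adjusted p = 0.0144), but not without PBS replicate 1 (-2.13). It lies inside the listed span of C1orf27, which stood at -0.13 (SE 0.09). TPR (-0.25, SE 0.10), PRG4 (-0.52, SE 0.47) and HMCN1 (-0.45, SE 0.40) were not called, though HMCN1 was without PBS replicate 1 (-0.89). PDC was too scarce to test.

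The genes whose levels over the 9 libraries were most like those of PTGS2, by the root mean square difference of centred log2 CPM among the 12472 genes that averaged 100 counts or more per library, were IL1A (0.770), LRRC8C (0.775), ZBED2 (0.865), SCG5 (0.891) and CDH18 (0.909). IL1A, the cytokine interleukin-1 alpha, stood at 175, 56.8 and 33.3 CPM in PBS and 3.35 to 8.10 in treated libraries. LRRC8C, a subunit of volume-regulated anion channels, stood at 47.5, 18.3 and 16.7 CPM in PBS and 1.31 to 1.90 in treated libraries. For HPGD they were SOWAHA (0.378), EPHB6 (0.443), PCDHGA4 (0.456), ROBO1 (0.459) and GPRC5B (0.476). ROBO1, a receptor of guidance cues, stood at 5.02, 26.4 and 10.3 CPM in PBS, with replicate 2 highest as for HPGD, and at 31.1 to 42.7 in treated libraries. These likenesses rest on the same 9 libraries that show the differences from PBS.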

How the data were processed

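RNA of whole PC3 xenograft pieces was sequenced after mRNA library preparation. The authors deposited raw read counts per gene in 2 tables, each holding the 3 PBS libraries and one conjugate group. The study's general methods and the submitters' notes name cutadapt, STAR, FastQC and featureCounts with GRCh38.p13. The listed coordinates are not of that build: of 15869 gene identifiers found in GENCODE v44, 44 had its coordinates. Strand settings and the handling of mouse reads are not given in the sources used here. PBS counts were the same in both tables. Totals were 54481702 to 125538975 counts per library, each PBS library being deeper than each treated one.

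Counts were tested with edgeR 4.0.16 (R 4.3.3): filterByExpr, TMM factors, quasi-likelihood test, Benjamini-Hochberg adjustment over all genes tested, two-sided, with a call at adjusted p of at most 0.05 and a fold of at least 1.5. The SE is the log2 fold change divided by the root of the test's F. The 3 against 3 fits used only the groups compared, and the comparisons with PBS share the PBS libraries. Log2 CPM for likeness used a prior count of 2. CPM per kb used canonical transcript lengths of GENCODE v44. Promoters were matched by symbol to a RefSeq table for 9 of 10 members (not SLCO2A1), and their first 250 bases were searched. The scripts were tested on simulated data.

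The members and lists were chosen with earlier results of these data known. Named genes were the 10 members; from each of 7 other lists, those called against PBS with both conjugates, up to the 4 with the largest fold over all 6 libraries; the 5 genes most like PTGS2 and HPGD; and the genes listed within 1 Mb of PTGS2 and PLA2G4A. Names outside this rule in the text were added after their values were seen. Alternatives were DESeq2 1.42.0, other scaling factors, other filters and no fold minimum. Further ones were a block on the first digit of the xenograft code, 1 fit of all 9 libraries, and leaving out each library. The same alternatives for named genes of the other lists were chosen after seeing the data.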

Additional observations from a re-analysis of the deposited data

How the results depend on the processing

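No paired analysis was possible because the replicate numbers mark no shared animal or day. A block on the first digit of the xenograft code in the titles was also fitted, though the labels do not say what it marks. This block called 2, 2 and 3 members in the P-DXd-titled, T-DXd-titled and all 6 libraries against PBS, where 3 each were called. Over all genes it called 3519, 3398 and 4630, where 3742, 4263 and 4855 were called without it. PLA2G4A was lost in both 3 against 3 comparisons, and PTGS2 stood at -4.94 in the T-DXd-titled one. Without a fold minimum, 5 members (PTGES and PTGES3 added) and 8398 genes were called with all 6 libraries, and between the conjugates DESeq2 called 24 genes and the fit of all 9 libraries 0, where 4 were called.

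Leaving out each library gave 1857 to 3936, 2820 to 4641 and 4204 to 5239 genes, 0 to 4, 1 to 4 and 3 to 4 members, and 9 to 28, 16 to 32 and 24 to 35 genes of the other lists called in the P-DXd-titled, T-DXd-titled and all 6 libraries against PBS. Between the conjugates it gave 0 to 8 genes. The cause was not tested, beyond the fewer samples of each such fit.

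Members that changed sign were never called in either direction in these comparisons, except PTGS1 without PBS replicate 3. Against PBS, leaving out 1 library moved PTGER4 between -0.34 and 0.058 (P-DXd-titled), -0.38 and 0.005 (T-DXd-titled), and -0.36 and 0.034 (all 6), and PTGS1 between -1.27 and 0.099 (T-DXd-titled) and -1.37 and 0.012 (all 6). Between the conjugates it moved PTGS1 between -0.51 and 0.046, PTGER2 between -0.18 and 0.19, PTGER4 between -0.007 and 0.094, HPGD between -0.25 and 0.26 and PLA2G4A between -0.19 and 0.091. The block turned PTGER2 to 0.038 and PLA2G4A to 0.13. CPM on total counts differed from the scaled CPM by at most 3.10%. Depth limits PTGS1, PTGER2 and SLCO2A1.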
